A study of Mus musculus with 11 samples.

Results

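Ifitm1, Ifitm2 and Ifitm3 are neighbouring genes that encode small interferon-induced transmembrane proteins. They are described here in whole mouse skin after dosing with ABBV-075 (mivebresib), which blocks the bromodomains of BET proteins and so their binding to acetylated chromatin. All probe sets annotated to 1 of the 3 genes alone were taken, which gave 3 probe sets, 1 for each gene, out of 34958 probe sets annotated to a single gene. The 3 genes were chosen by their measured levels at 6 h against vehicle on these arrays, so their 6 h differences from vehicle are given as a description, with no test. All 3 passed the filter on dim genes that 13710 of 18194 genes passed.

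The 11 Affymetrix arrays each hold the skin of a different mouse. The control group is 3 mice dosed with vehicle (replicates 1, 3 and 4). The other 8 received ABBV-075 at 1 mg/kg, and their skin was taken 6 h later in 4 of them (replicates 1, 2, 3 and 5) and 24 h later in the other 4 (replicates 1, 2, 3 and 4). The labels give no genotype other than mouse, no strain, sex or age, and no collection time for the vehicle skin, so a change with time of day or after handling cannot be told apart from a change with ABBV-075. The labelling kit, per the labels, primes from the 3' end of transcripts and took 200 ng of total RNA. As a check of the tissue, all 7 basal keratinocyte markers passed the filter, and their mean log2 level lay between 9.91 and 12.12 on every array, against a floor of 4.

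The deposited intensities were not on a common level, since the mean of an array without its lowest and highest 2% of values was between 82.8 and 244. The arrays were therefore quantile-normalized, and a level below is log2(normalized intensity + 16) unless another scale is named. The 5' to 3' ratio of the beta-actin control probes, which is low where RNA is shortened, was 0.484 to 0.593 with vehicle, 0.0725 to 0.425 at 6 h and 0.198 to 0.529 at 24 h. The same ratio of the Gapdh control probes was 0.698 to 0.911 with vehicle, 0.684 to 0.711 in 3 of the 6 h mice, 0.104 in 6 h replicate 5, and 0.804 to 1.08 at 24 h. The actin ratio was thus lower than with vehicle in every 6 h mouse, and also in 24 h replicates 2, 3 and 4. The Gapdh ratio was not lower at 24 h, and the part of RNA quality in the results below was not tested. No gene of the 13710 passed an adjusted p of 0.05 in any of the 3 contrasts between groups with limma. At an unadjusted p under 0.05, limma counted 2202 genes (16.1%) for 6 h minus vehicle, 1046 (7.63%) for 24 h minus vehicle and 1271 (9.27%) for 24 h minus 6 h.

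Interferons bind receptors at the cell surface, and the Jak kinases and STAT proteins then carry the signal to interferon-stimulated response elements in the promoters of a large set of genes, the Ifitm genes among them. The IFITM proteins sit in membranes and hinder the fusion of enveloped viruses with the cell. IFITM3 and IFITM2 act mainly in endosomes and lysosomes, and IFITM1 mainly at the plasma membrane. Barrier tissues such as skin also make them without infection.

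The promoter sequences of the 3 genes are shown because the genes lie side by side and were read on the same arrays, and because the textbook inducer acts through a short, recognisable motif. They are from RefSeq (GRCm38.p6), 5' to 3' on the strand of the gene, and each ends at the base before the annotated start of the gene. Capitals mark the core of the interferon-stimulated response element, GAAA and GAAA with any 2 bases between them, searched on both strands. Ifitm1 lies on the plus strand, at chr7:140967826-140968075. Ifitm2 lies on the minus strand, at chr7:140955962-140956211. Ifitm3 lies on the minus strand, at chr7:141010745-141010994. The last sequence is the 29-base stretch of Ifitm3 just after its annotated start, chr7:141010715-141010743, in which capitals also mark TTCNNNGAA, the gamma-interferon activated site.
Ifitm1: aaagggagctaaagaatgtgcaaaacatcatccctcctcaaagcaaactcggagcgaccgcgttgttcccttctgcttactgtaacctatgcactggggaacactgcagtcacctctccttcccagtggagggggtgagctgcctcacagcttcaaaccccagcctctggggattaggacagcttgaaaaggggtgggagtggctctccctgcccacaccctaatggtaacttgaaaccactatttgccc
Ifitm2: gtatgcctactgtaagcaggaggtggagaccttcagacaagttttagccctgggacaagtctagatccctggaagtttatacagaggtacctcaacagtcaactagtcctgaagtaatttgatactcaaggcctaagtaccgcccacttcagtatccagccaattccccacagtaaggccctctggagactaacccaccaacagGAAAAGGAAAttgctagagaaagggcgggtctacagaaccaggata
Ifitm3: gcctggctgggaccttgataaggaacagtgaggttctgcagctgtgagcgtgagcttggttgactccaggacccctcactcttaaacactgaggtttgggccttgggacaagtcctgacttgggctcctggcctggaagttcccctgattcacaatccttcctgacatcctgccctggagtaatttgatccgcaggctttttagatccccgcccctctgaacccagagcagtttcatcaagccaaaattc
Ifitm3, after the start: gGAAAAGGAAAcTTCTGAGAAACCGAAAc

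The 250 bases before the start of Ifitm2 held 1 match to the response element core, GAAAAGGAAA, beginning at position -46 counted from the annotated start. The 250 bases before the start of Ifitm3 held none, but the first 50 bases from the start held 2 matches, GAAAAGGAAA from position 3 and GAAACCGAAA from position 20, with TTCTGAGAA from position 14 overlapping the second of them. The window of Ifitm1 held no match to either motif, which says only that these letters are not in this window. Over all RefSeq promoter windows of this length, 3.44% held the response element core (1131 of 32851) and 8.3% held TTCNNNGAA (2726). Counted by gene, the shares were 3.99% and 9.55%. Of the interferon-stimulated genes examined below, also counted by gene, 15 of the 34 with a window held the core, and 8 held TTCNNNGAA. A match is a description of the letters, not of a bound factor.

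Ifitm3, the most studied of the antiviral members, was lower in every dosed mouse than in any vehicle mouse. With vehicle its level was 13.21, 12.54 and 12.59 in replicates 1, 3 and 4. At 6 h it was 11.37, 11.23, 11.39 and 11.21 in replicates 1, 2, 3 and 5. At 24 h it was 12.04, 11.47, 11.76 and 11.73 in replicates 1 to 4. The 6 h mice lay within a narrow band below all others, and the 24 h mice lay between them and vehicle with no overlap on either side. On the deposited linear scale, before normalization, the intensities were 6931 to 11251 with vehicle, 1561 to 3566 at 6 h and 2409.6 to 4477 at 24 h, again with vehicle apart. Ifitm3 was among the brighter probe sets, between percentile 97.9 and 99.8 of all probe sets on each array.

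Ifitm2, a close relative of Ifitm3 that acts in the same compartments, had the same order of vehicle and dosed mice. Its level with vehicle was 12.25, 11.76 and 11.53 in replicates 1, 3 and 4. At 6 h it was 10.75, 10.38, 10.90 and 10.13 in replicates 1, 2, 3 and 5. At 24 h it was 11.17, 10.45, 10.96 and 10.75 in replicates 1 to 4. Every dosed mouse lay below every vehicle mouse, while the mice of the 2 times overlapped each other. Ifitm2 lay between percentile 95.1 and 99.2 of each array.

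Ifitm1, the member found mainly at the plasma membrane, gave a dimmer probe set and more scattered values. Its level with vehicle was 7.97, 7.52 and 7.59 in replicates 1, 3 and 4. At 6 h it was 7.14, 7.15, 6.30 and 7.44 in replicates 1, 2, 3 and 5. At 24 h it was 7.84, 6.93, 7.23 and 5.99 in replicates 1 to 4. The 6 h mice lay below vehicle by a small gap, and 24 h replicate 1 lay within the vehicle range. The 24 h mice numbered 1, 3 and 4 each lay below the vehicle mouse of the same number. The probe set ranged from percentile 54.2 to 80.1 of the arrays. Levels of different probe sets are not set against each other, because the brightness of a probe set also depends on its probes. The probe sequences were not used here, and whether a probe set also takes up the transcript of a related Ifitm gene was not tested.

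**Figure D1:**
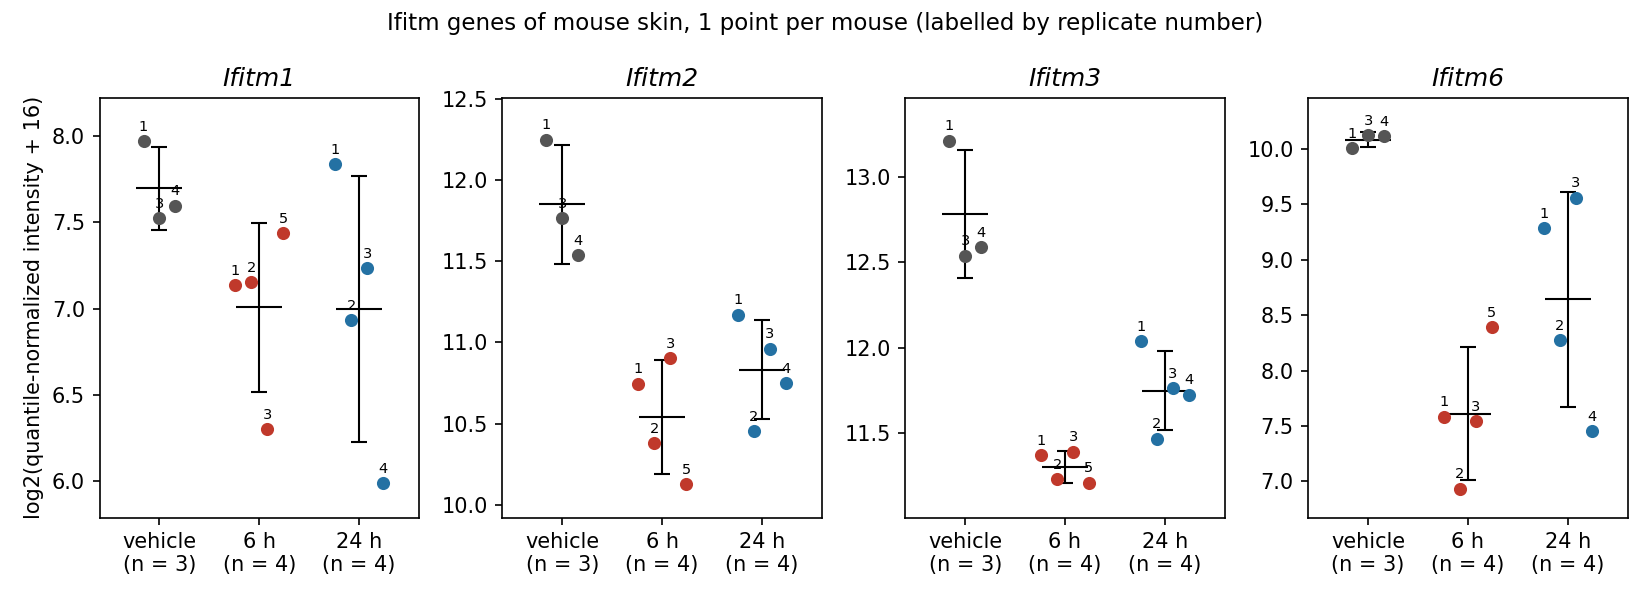
Levels of Ifitm1, Ifitm2, Ifitm3 and their neighbour Ifitm6, as log2(quantile-normalized intensity + 16), with 1 point per mouse labelled by replicate number, the mean as a dash and the SD as a bar, for vehicle (n = 3), 6 h (n = 4) and 24 h (n = 4). The vertical axes differ between panels and do not start at 0. All dosed mice lie below all vehicle mice for Ifitm2, Ifitm3 and Ifitm6, whereas 24 h replicate 1 of Ifitm1, at 7.84, lies among the vehicle mice.

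At 6 h, Ifitm3 averaged 11.30 ± 0.095 (SD, n = 4) against 12.78 ± 0.37 (SD, n = 3) with vehicle, a difference of -1.48 ± 0.20 (SE from limma, 95% interval -1.92 to -1.04), or 0.359 of the vehicle level on the scale with 16 added. Ifitm2 averaged 10.54 ± 0.35 against 11.85 ± 0.36, a difference of -1.31 ± 0.25 (interval -1.86 to -0.76), or 0.403 of vehicle. Ifitm1 averaged 7.01 ± 0.49 against 7.70 ± 0.24, a difference of -0.69 ± 0.39 whose interval, -1.54 to 0.17, includes 0. All 3 genes had every 6 h mouse below every vehicle mouse, as did 8.77% of all genes tested, but this contrast chose the genes and nothing is read from that count. Without 6 h replicate 3, the 6 h difference of Ifitm1 was -0.45, and with the replicate number as a block it was -1.10.

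At 24 h the vehicle mice are the same animals that took part in the choice of the genes, so the tests that follow are not independent of it, and the 6 h and 24 h differences share their controls. Ifitm3 averaged 11.75 ± 0.23 (SD, n = 4), a difference from vehicle of -1.03 ± 0.20 (SE, interval -1.47 to -0.59), or 0.489 of vehicle. With limma the unadjusted p was 3.1e-04, rank 10 among the 13710 genes, and the adjusted p was 0.41. Ifitm2 averaged 10.83 ± 0.31, a difference of -1.02 ± 0.25 (interval -1.57 to -0.46), or 0.495 of vehicle, with a limma unadjusted p of 0.0019, rank 43, and an adjusted p of 0.53. Neither passed the threshold of 0.05 after adjustment. Ifitm1 averaged 6.998 ± 0.77, a difference of -0.70 ± 0.39 (interval -1.55 to 0.16), with a limma adjusted p of 0.68. Of the 3 genes, 2 had every 24 h mouse below every vehicle mouse, against 6.02% of all genes tested, and 0 of 3 passed the adjusted threshold, against 0% of all genes. The value of Ifitm1 leaned on 24 h replicate 4, its lowest mouse: without that array its difference was -0.36, and with limma's array weights, which count the more scattered arrays less, it was -0.16. On the intensities as deposited, where the median of all genes was -0.62, the 24 h differences of Ifitm2 and Ifitm1 were -1.66 and -1.33.

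Between the 2 times, Ifitm3 was 0.45 ± 0.19 (SE) higher at 24 h than at 6 h, and the 4 mice of each time did not overlap, which 1.92% of all genes showed in that direction. The values of all 3 genes for this contrast are a description, because the 6 h arrays chose them. Ifitm2 differed by 0.29 ± 0.23, with overlapping mice. Ifitm1 differed by -0.0089 ± 0.36, also with overlapping mice. For Ifitm1 and Ifitm2 the spread between mice was as large as or larger than the difference, which does not show that the 2 times were alike.

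**Figure D2:**
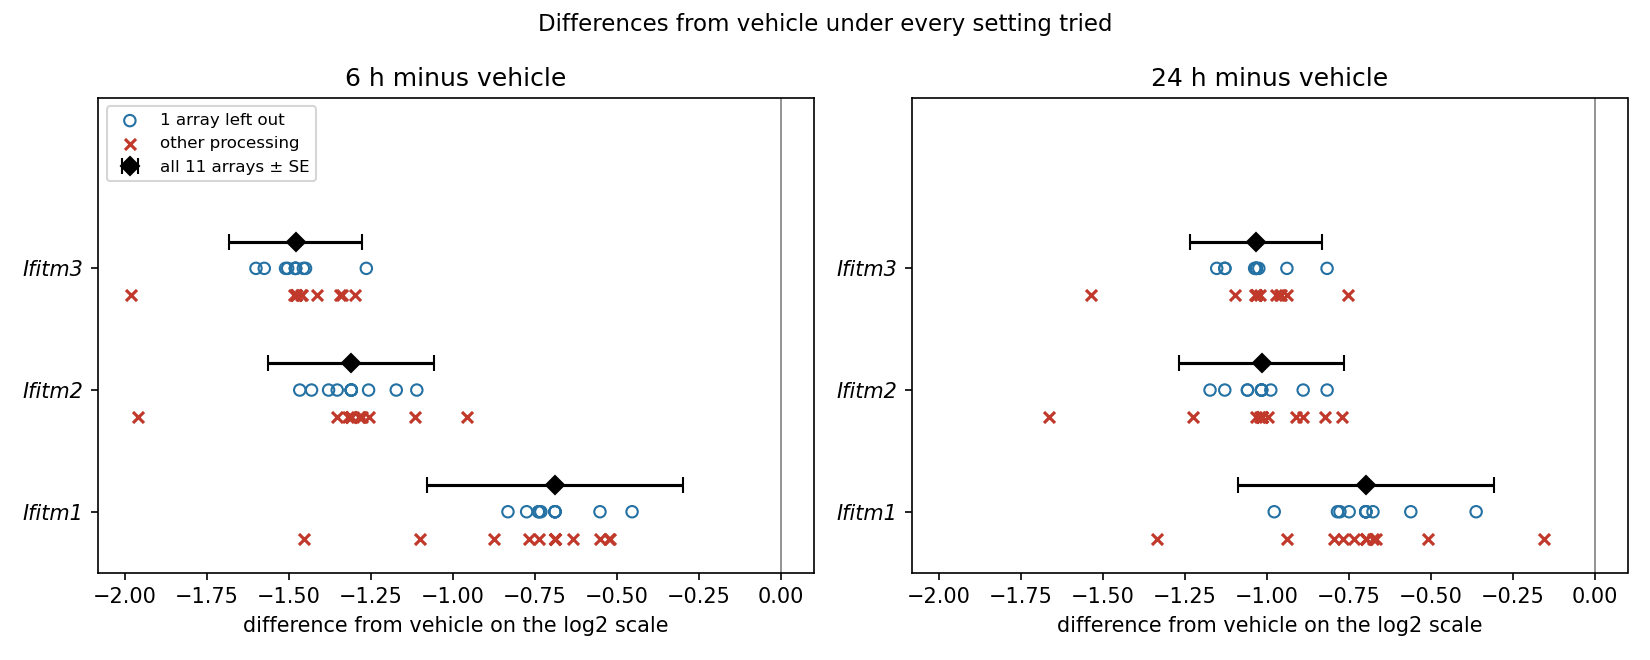
Differences of Ifitm1, Ifitm2 and Ifitm3 from vehicle at 6 h (left) and 24 h (right), on the log2 scale. Diamonds are the values from all 11 arrays with the SE, open circles the values with 1 array left out, and crosses the values under other processing. Every point of Ifitm2 and Ifitm3 lies below 0, and with 1 array left out Ifitm3 runs from -1.60 to -1.26 at 6 h and from -1.15 to -0.82 at 24 h.

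The values beside these differences that bear on RNA quality were as follows. The arrays whose actin ratio was under 0.3 were 6 h replicates 3 and 5 and 24 h replicate 2. Without them, which left only replicates 1 and 2 at 6 h, the difference of Ifitm3 was -1.48 at 6 h and -0.94 at 24 h. With the actin ratio as a covariate, it was -1.34 and -0.96. Every 6 h actin ratio lay below every vehicle ratio, so the covariate is not independent of the 6 h group. Without the same arrays Ifitm2 was -1.29 and -0.89, and with the covariate -0.96 and -0.82. Ifitm1 was -0.55 and -0.68 without them, and -0.64 and -0.67 with the covariate.

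Among mice of the same group, Ifitm2 and Ifitm3 rose and fell together. After the group means were removed, their levels over the 11 arrays gave Pearson's r = 0.85 (exact permutation within groups, p = 0.0020, adjusted over the 3 pairs 0.0061) and Spearman's rho = 0.90 (exact permutation p = 0.0012, adjusted 0.0035). Without vehicle replicate 1 and 6 h replicate 3, the arrays farthest from the median, r was 0.83. Ifitm1 and Ifitm3 gave r = 0.33 and rho = 0.35 (exact permutation p = 0.34 for both, adjusted 0.51). Ifitm1 and Ifitm2 gave r = 0.096 (p = 0.78 by the same exact test) and rho = 0.064 (exact permutation p = 0.87). Without 24 h replicate 4 and 6 h replicate 3, the pairs of Ifitm1 with Ifitm3 and with Ifitm2 gave r = 0.70 and 0.48, so the low values rest on those arrays. Levels on an array share its labelling and scaling, and no array effect was removed beyond quantile normalization.

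Whether the 3 genes fell by unequal amounts was examined within arrays. At 24 h the difference from vehicle of Ifitm3 minus Ifitm1 was -0.33 (exact permutation p = 0.54, adjusted over 3 pairs 0.81). That of Ifitm2 minus Ifitm1 was -0.32 (exact permutation p = 0.46, adjusted 0.81), and that of Ifitm3 minus Ifitm2 was -0.016 (exact permutation p = 0.86, adjusted 0.86). With 35 splits of the mice, 0.0286 is the smallest p this design allows. After adjustment over the 3 pairs, a pair that reached this p alone would not pass the adjusted threshold. These tests therefore cannot decide whether 1 pair differed. The vehicle arrays also took part in choosing the genes, so the tests are not independent of that choice. At 6 h the same quantities were -0.79, -0.62 and -0.17, given without a test. At 24 h the gap in size between Ifitm1 and the other genes thus lay within the spread between mice, which does not show that the 3 fell by the same amount.

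The genes most like each member over the 11 arrays were named by Pearson's r of the levels, among all genes tested. This r includes the differences between the groups, and is a description. For Ifitm3 they were Letmd1 (r = 0.969), Ifitm2 (0.960) and Rab5c (0.957). For Ifitm2 they were Rab5c (0.984), a small GTPase of early endosomes, Arpc1a (0.963), a subunit of the actin-nucleating Arp2/3 complex, and Ifitm3. Against vehicle, Rab5c stood at -0.98 (log2) at 6 h and -0.76 at 24 h, Letmd1 at -0.76 and -0.47, and Arpc1a at -0.40 and -0.30. For Ifitm1 they were Galnt12 (0.973), an enzyme that starts O-linked glycans, She (0.943), an adaptor protein, and H2-Ob (0.929), a chain of an MHC class II chaperone. Galnt12 differed from vehicle by -0.61 and -0.72, She by -0.20 and -0.18, and H2-Ob by -0.34 and -0.63. Without 24 h replicate 4, the 24 h difference of Galnt12 was -0.41 and that of She was 0.0097. With array weights, the 24 h differences were -0.21 for Galnt12, 0.16 for She and -0.29 for H2-Ob. Where probe sets were averaged, Letmd1 stood at -0.37 and -0.27. None of these genes passed the adjusted threshold.

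The Ifitm genes belong to the CD225 family, whose other measured genes lay on both sides of their vehicle levels. Of 11 further family genes listed, 5 were tested, 4 were below the filter (Ifitm5, Ifitm7, Tmem91 and Syndig1), and Tmem233 and Prrt2 were not analysed here. Ifitm6, a member found mostly in myeloid cells and the next gene after Ifitm3 on the chromosome, was 10.004, 10.12 and 10.12 with vehicle replicates 1, 3 and 4. It was 7.58, 6.93, 7.54 and 8.39 at 6 h in replicates 1, 2, 3 and 5, and 9.29, 8.27, 9.56 and 7.45 at 24 h in replicates 1 to 4. Vehicle was tight and every dosed mouse was lower, with differences of -2.47 ± 0.47 (SE) at 6 h and -1.44 ± 0.47 at 24 h, the latter with a limma adjusted p of 0.53. Trarg1, which acts in glucose transporter traffic in fat cells, was also below vehicle in every dosed mouse, by -2.01 at 6 h and -1.18 at 24 h, or -0.70 at 24 h without 24 h replicate 4. Thus 2 of the 5 family genes tested lay below vehicle with no overlap, beside 8.77% of all genes at 6 h and 6.02% at 24 h. Ifitm10 differed by -0.16 and -0.11, but by 0.10 at 6 h without vehicle replicate 1 and 0.21 at 24 h without 24 h replicate 3. Prrt1 differed by 0.28 and 0.54, and Syndig1l by 0.58 and 0.56, the last with every 24 h mouse above vehicle, as for 5.09% of all genes. Where the probe sets of a gene were averaged, Syndig1l was -0.076 and -0.12. Prrt1 was below 0 at both times on the intensities as deposited, with -0.52 and -0.21. The vehicle means of Ifitm10, Prrt1 and Syndig1l were 5.20, 5.46 and 5.19, near the floor of 4, which limits what their differences show.

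The genes around the cluster lay on both sides of their vehicle levels. RefSeq places Ifitm5, Ifitm2, Ifitm1, Ifitm3 and Ifitm6 in that order, and the 5 protein-coding genes on each side were all tested. Among these 10 neighbours, 6 were higher and 4 lower than vehicle at 6 h, and 5 were higher and 5 lower at 24 h, with median differences of 0.072 and -0.016. The nearest on one side, Pgghg, an enzyme that trims collagen sugars, was below vehicle in every dosed mouse, by -0.56 and -0.47, or by -0.0093 at 6 h and -0.16 at 24 h with the actin ratio as a covariate. Ptdss2, a phosphatidylserine synthase at the far end of the other side, was -0.87 at 6 h, with no overlap with vehicle, and -0.53 at 24 h, with overlap, or -0.44 and -0.23 where its probe sets were averaged. Of the 10 neighbours, 2 at 6 h and 1 at 24 h thus lay below vehicle with no overlap. Of all genes tested, 8.77% and 6.02% did so, and nothing is read from so few neighbours. The other 8 overlapped vehicle at both times: Sirt3, Psmd13, Cox8b, Nlrp6, B4galnt4, Pkp3, Sigirr and Ano9. Among them B4galnt4, the gene next to Ifitm6, differed by 0.24 and -0.11, and Nlrp6, next to Pgghg, by -0.26 and -0.098. These 2 genes were dim, with vehicle means of 5.38 and 5.55 near the floor of 4, which limits what their differences show. Both 24 h values turned above 0, to 0.075 for B4galnt4 without vehicle replicate 4 and 0.047 for Nlrp6 without vehicle replicate 1, and with array weights to 0.057 and 0.27. On the intensities as deposited, where the median of all genes was -0.68 at 6 h and -0.62 at 24 h, all 10 neighbours were below 0 at 6 h and 9 at 24 h, and they are read here against that shift.

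The interferon pathway around the 3 genes is described next, by lists chosen with results of these data known, so that their direction is no independent support. Genes of interferon themselves were mostly too dim to test. Of 9 listed, only Ifnb1 passed the filter, with a mean of 4.94 for vehicle near the floor of 4, and differences of 0.29 and 0.22, or -0.44 and -0.18 with the actin ratio as a covariate. Ifna1, Ifna2, Ifna4 and Ifng were below the filter, and the others were not analysed here. Among 20 tested receptor and signalling genes, 16 were lower than vehicle at 6 h (median -0.36) and 17 at 24 h (median -0.30). The type I receptor chain Ifnar2 differed by -0.62 and -0.63 and its partner Ifnar1 by -0.16 and -0.33. The type II chains were -0.17 and -0.043 for Ifngr1, and -0.54 and -0.20 for Ifngr2. Where probe sets were averaged, Ifnar1 was 0.25 and 0.17, and without 24 h replicate 4 the 24 h values of Ifnar2 and Ifngr2 were -0.35 and 0.022. Without 24 h replicate 2 that of Ifngr1 was 0.090. The kinase Jak1, which serves both receptors, differed by -0.73 and -0.55, or by -0.063 at 6 h with the actin ratio as a covariate and -0.13 at 24 h where its probe sets were averaged. The transcription factors Irf9, the DNA-binding part of ISGF3, and Irf7, the amplifier of interferon-alpha production, differed by -0.69 and -0.55 and by -1.16 and -1.14. Usp18, a feedback inhibitor of the type I receptor that is itself interferon-induced, differed by -1.43 and -0.96. With array weights, the 24 h values of Irf7 and Usp18 were -0.65 and -0.56. None of the 20 passed the adjusted threshold. Without vehicle replicate 1, the 6 h median was -0.21.

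Of 46 interferon-stimulated genes other than the 3 members, 39 were tested. Stat2, Irf7, Irf9 and Usp18 are in both this list and that of the receptor and signalling genes, so the lists are not separate. All 39 were lower than vehicle at 6 h, with a median of -1.21, beside 6798 of all 13710 genes and a median of 0.0037. At 24 h, 38 of 39 were lower, with a median of -0.96, beside 7181 of all genes and a median of -0.020, and Eif2ak2, near 0 at 0.014, was the exception. With array weights the 24 h median was -0.61. Without vehicle replicate 1, 37 of the 39 were lower at 6 h and 36 at 24 h. Groups did not overlap for 18 of the 39 at 6 h and for 15 at 24 h, against 8.77% and 6.02% of all genes. None passed the adjusted threshold at either time, while limma gave 27 and 22 of them an unadjusted p under 0.05 and a lower level, against 8.05% and 4.47% of all genes. The 6 h and 24 h values of Ifitm3, -1.48 and -1.03, lay below the medians of this list, and those of Ifitm1, -0.69 and -0.70, above them. Oasl2, of the oligoadenylate synthetase family, differed by -2.72 and -1.92. The RNA sensor regulator Dhx58 differed by -1.997 and -1.53, Mx1, a GTPase that blocks influenza viruses, by -1.55 and -1.33, and Lgals3bp, a secreted glycoprotein, by -1.44 and -1.41, or -0.79 at 24 h with array weights.

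**Figure D3:**
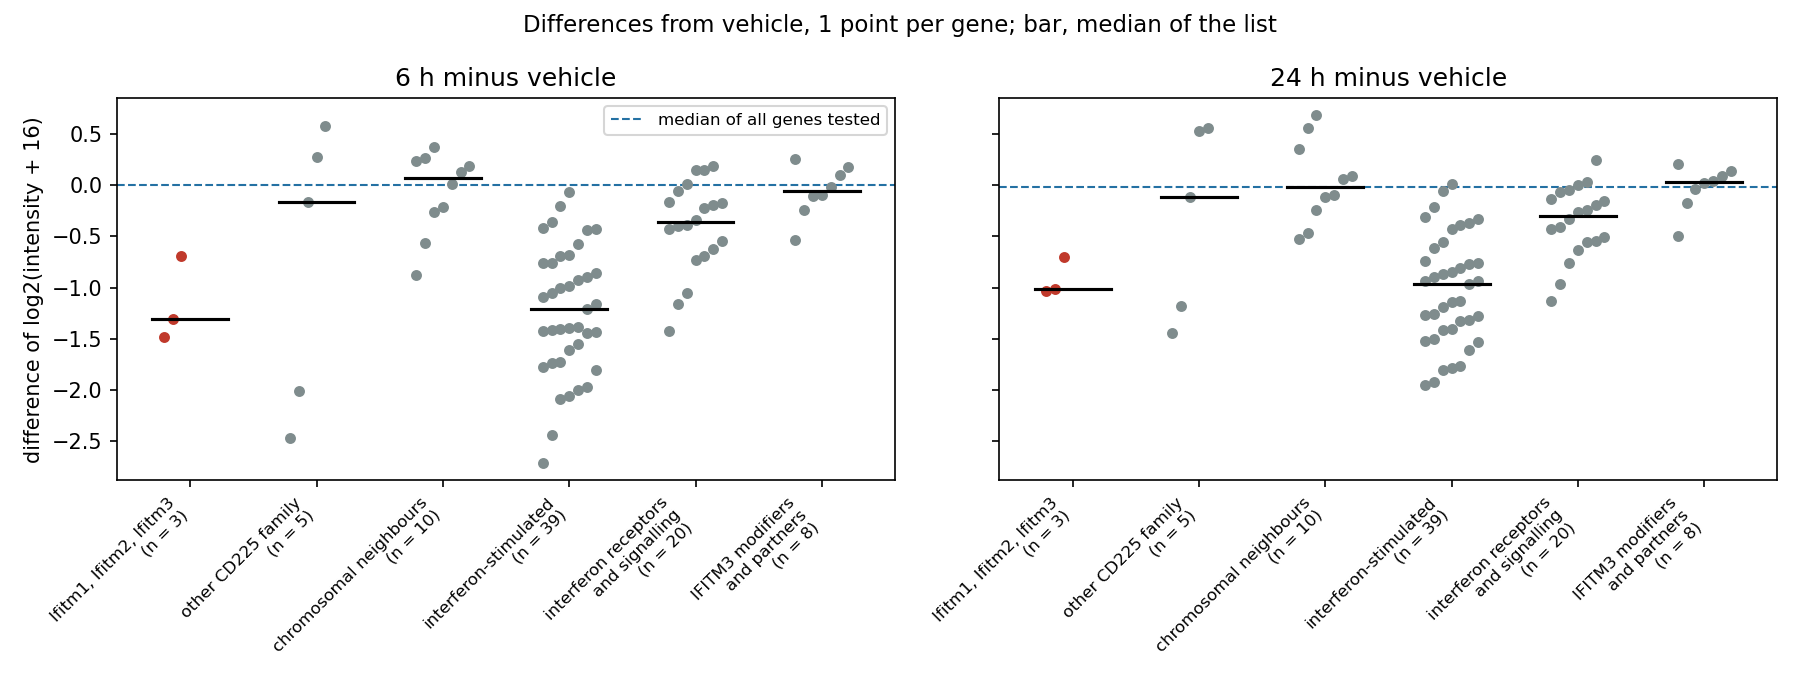
Differences from vehicle at 6 h and 24 h, on the log2(intensity + 16) scale, for Ifitm1, Ifitm2 and Ifitm3 and the gene lists, with 1 point per gene tested and a bar at the median of each list. The interferon-stimulated genes have medians of -1.21 and -0.96, whereas the 10 chromosomal neighbours lie on both sides of 0.

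Genes whose products act on the IFITM3 protein lay on both sides of their vehicle levels. All 8 listed were tested, with differences from -0.53 to 0.26 at 6 h and from -0.49 to 0.21 at 24 h, and none reached an unadjusted p under 0.05 with limma at either time or passed the adjusted threshold. Fyn, a kinase that phosphorylates the amino-terminal tail of IFITM3, differed by -0.53 and -0.49. Its 24 h value was -0.13 without 24 h replicate 4 and -0.28 with array weights. Fyn was the 1 gene of the 8 with every 6 h mouse below every vehicle mouse, beside 8.77% of all genes tested, and it overlapped vehicle at 24 h. Nedd4, the ligase that ubiquitinates IFITM3, differed by -0.24 and 0.21. The related ligase Itch differed by -0.094 and -0.17, or 0.11 and 0.082 where its probe sets were averaged. Vapa, a partner in cholesterol handling at the endosome, differed by 0.18 and 0.088. On the intensities as deposited all 4 were below 0, together with the median of all genes.

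Marker lists of several cell types of skin had medians below vehicle beside the Ifitm genes and others did not, and in whole skin fewer cells of a type and less RNA per cell cannot be told apart. Of 12 macrophage and dendritic cell markers, 11 were lower than vehicle at 6 h (median -0.58) and 12 at 24 h (median -0.87), and without 24 h replicate 4 the 24 h median was -0.41. The summed intensity of the 12 was 21335 to 35170 with vehicle, 17847 to 21065 at 6 h and 8687 to 23174 at 24 h. Fcgr1, an Fc receptor of macrophages that interferon also raises, differed by -2.54 and -1.56, or -0.99 at 24 h without 24 h replicate 4, and by -1.51 and -0.57 where its probe sets were averaged. Of 8 blood endothelial markers, 8 were lower at 6 h and 7 at 24 h, with medians of -0.70 and -0.68. Their sums were 1387 to 2374 with vehicle, 903 to 1265 at 6 h and 684 to 1466 at 24 h. Ramp2, a receptor partner of the vessel wall, differed by -1.30 and -1.07, or -0.63 at 24 h with array weights. Of 8 fibroblast markers, all were lower at both times, with medians of -0.30 and -0.63 and sums of 60773 to 64755, 49561 to 57892 and 24497 to 60358. Pdgfra, a receptor that marks fibroblasts, differed by -1.04 and -1.20, or -0.68 at 24 h without 24 h replicate 4 and -0.57 with array weights. All 5 adipocyte markers tested were lower at both times, with medians of -0.98 and -0.84 and sums of 10763 to 15699, 5144 to 10111 and 2336 to 13952. All 5 mast cell markers tested were lower as well, with medians of -0.77 and -1.05. Sums over the 6 measured, which include Fcer1a from below the filter, were 1696 to 1726, 874 to 1177 and 154 to 1782. In 24 h replicate 4 the mean log2 level of these 6 was 5.24, against 6.91 to 7.38 in the other 24 h mice and 7.22 to 7.56 with vehicle. That of the 5 adipocyte markers was 7.69 in the same mouse, against 9.65 to 10.70 and 10.22 to 10.93. The medians of smooth muscle and pericyte markers were 0.022 and 9.3e-05, those of Langerhans cell markers 0.32 and -0.11, those of T cell markers 0.13 and 0.16, and those of skeletal muscle markers -0.056 and 0.30. None of the macrophage, endothelial, fibroblast, adipocyte or mast cell markers was at the floor on every array. All 7 basal keratinocyte markers were higher than vehicle at both times, with medians of 0.57 and 0.55. For 0 of the 7 were the groups without overlap, and 0 had an unadjusted limma p under 0.05, at either time. Their mean log2 level was 9.91 to 10.59 with vehicle and 9.92 to 11.52 at 6 h. At 24 h it was 12.12 in replicate 4, against 10.26 to 10.67 in the other mice. The part of cell makeup in the Ifitm differences was not tested.

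Marker levels of 24 h replicate 4 stood at the low end for some cell types and at the high end for others. In it the mean log2 level of the macrophage and dendritic cell markers, 8.14, and of the fibroblast markers, 10.56, was the lowest of all 11 mice. Its means of the basal keratinocyte markers, 12.12, and of the skeletal muscle markers, 12.80, were the highest of all 11 mice. There Ifitm3 was 11.73 and Ifitm2 10.75, inside the range of the other 24 h mice, while Ifitm1 was 5.99, its lowest. Without that array, the 24 h differences of Ifitm3 and Ifitm2 were -1.02 and -0.99.

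**Figure D4:**
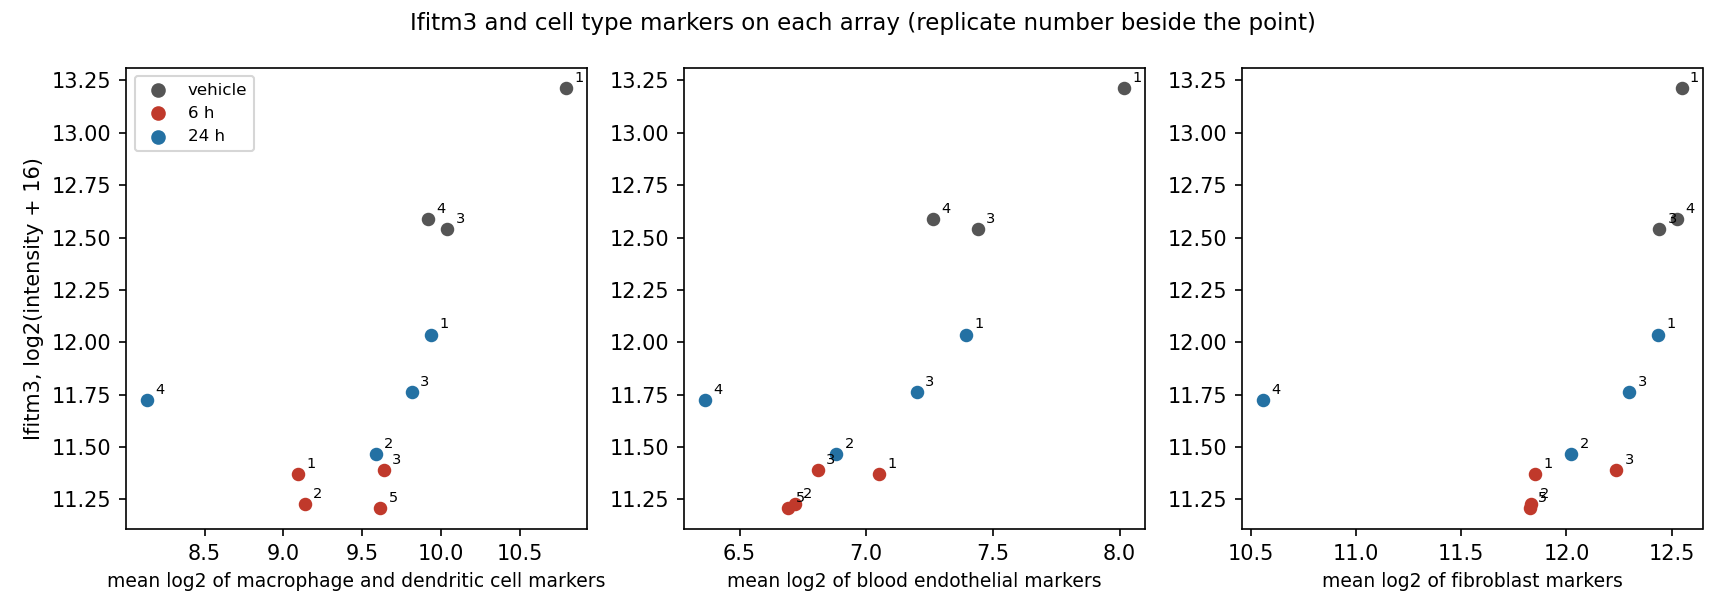
Level of Ifitm3 on each array against the mean log2 level of the macrophage and dendritic cell, blood endothelial and fibroblast markers, with 1 point per mouse coloured by group and numbered by replicate. In the macrophage and fibroblast panels 24 h replicate 4 stands at the far left, with marker means of 8.14 and 10.56, and has Ifitm3 at 11.73, within the other 24 h mice.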

How the data were processed

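The authors deposited 1 intensity per probe set and array, on a linear scale, for 45101 probe sets. No source used here gives the software, background method or scaling behind them, and 12.9% to 16.6% of an array's values lay below 0. Probe sets were named through the platform annotation: 34958 had 1 gene, 932 several and 9211 none here. Intensities were quantile-normalized, set to at least 0 and taken as log2(intensity + 16), which understates changes of dim genes. A gene was its brightest single-gene probe set, kept above the 40th percentile on at least 3 arrays.

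Groups were compared with limma 3.58.1 in R 4.3.3, in 1 fit over 11 arrays with Benjamini-Hochberg adjustment over 13710 genes, two-sided. Pairs of members were compared with exact two-sided permutation tests. The number of arrays limits the precision. The fit was first tested on simulated data. No label ties arrays to separate batches.

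The members and lists were chosen with earlier results of these data known. Named genes are the members, all measured CD225 family genes and neighbours, up to 4 genes per other pathway list and 1 per cell type list of smallest 24 h p, the 3 genes most correlated with each member, and interferon receptors, named after their values were seen. The fit and the permutation tests carry no replicate block, which is an alternative. Deviations of same-numbered arrays correlated at 0.25, 0.13 and 0.21 for vehicle and 24 h, but at -0.12 and -0.074 for vehicle and 6 h. For 6 h and 24 h they correlated at -0.064, -0.35 and 0.17. Pairs of arrays with different numbers ran from -0.54 to 0.56, and no label says what a number shares. Alternatives covered normalization, pseudocount, filter, probe sets, variance model, arrays, pairing and RNA quality. Protein sequences were not analysed here.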

Additional observations from a re-analysis of the deposited data

Results flagged for a closer look

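Among the 40 genes named, 4 of the 80 groups of 4 mice held 1 mouse far from the others, and chance gives about 1 in 20 such groups. Of the neighbours of the Ifitm genes, Pkp3, a desmosome protein, was 10.52 in 24 h replicate 4 against 8.34 to 8.55 in the other 24 h mice. Sirt3, a mitochondrial deacetylase, was 5.89 in 24 h replicate 2 against 7.08 to 7.17. The interferon-stimulated gene Mx1 was 6.17 in 6 h replicate 5 against 5.22 to 5.36. The fibroblast marker Pdgfra was 8.12 in 24 h replicate 4 against 10.09 to 10.24. No group of Ifitm1, Ifitm2, Ifitm3 or Ifitm6 held such a mouse.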

How the results depend on the processing

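The differences of Ifitm1, Ifitm2 and Ifitm3 from vehicle were below 0 under every alternative run, and no adjusted p of theirs at 24 h passed 0.05 with limma (lowest 0.062, for Ifitm3). With 1 array left out, the 6 h differences of Ifitm1, Ifitm2 and Ifitm3 ran from -0.83 to -0.45, -1.47 to -1.11 and -1.60 to -1.26, and the 24 h differences from -0.98 to -0.36, -1.17 to -0.82 and -1.15 to -0.82. The 24 h minus 6 h difference of Ifitm1, near 0, turned above 0 with the intensities as deposited (0.12), cyclic loess (0.0049), a pseudocount of 64 (0.012) and array weights (0.37), and ran from -0.29 to 0.33 with 1 array left out, above 0 for 5 of 11 arrays (highest without 24 h replicate 4). That of Ifitm3 was 0.20 with median scaling.

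With the intensities as deposited, whose all-gene median moved to -0.68 at 6 h and -0.62 at 24 h, the 6 h differences of Ifitm1, Ifitm2 and Ifitm3 were -1.45, -1.96 and -1.98. The medians of interferon-stimulated genes, receptor and signalling genes and macrophage markers were then -2.04, -1.02 and -1.24 at 6 h, and the first 2 were -1.62 and -0.94 at 24 h. Median scaling gave the receptor and signalling genes -0.55 at 24 h. Array weights gave the interferon-stimulated genes -0.61 at 24 h. With the actin ratio as a covariate, interferon-stimulated genes were -1.86 and macrophage markers -1.24 at 6 h. With the replicate number as a block, which changed no call of the 3 genes, these medians were -1.80 and -1.32, Ifitm3 was -1.42 at 6 h and -0.97 at 24 h, and Ifitm1 turned to 0.33 for 24 h minus 6 h.

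The number of genes called by limma was 0 in each contrast. At 6 h it was 859 as deposited, 18 with no filter, 7 with the mean of probe sets, 2498 with array weights, 1 each with every probe set, 2 groups only and the replicate block, and 0 to 23 with 1 array left out (23 without 24 h replicate 4). At 24 h it was 6 as deposited, 1 with no filter, 59 with array weights, 2 with 2 groups only, and 0 to 1 with 1 array left out. For 24 h minus 6 h it was 423 with array weights, 2 with the mean of probe sets, 1 with every probe set, without x_at and s_at probe sets or with the actin covariate, and 0 to 7 with 1 array left out (7 without 6 h replicate 5). The cause of these differences was not tested. Dim probe sets, Ifitm1 among these genes, limit what the arrays show.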
